A study of Homo sapiens with 3 samples.

Results

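In stratified immortalized human corneal epithelial (iHCE) cultures, the invariant chain gene *CD74* lay just over the background threshold on all 3 arrays. The MHC class II genes lay under it, except *HLA-DRB1*, which exceeded it on 2 arrays. The mean levels of *CD74*, *HLA-DRB1* and *HLA-DOA* were not told apart from the threshold. Under 5 of the alternative settings 1 or 2 class II chain genes were over it, and under the highest thresholds tried *CD74* was not. The genes described are *CD74*, *CIITA*, *HLA-DRA*, *HLA-DPA1*, *HLA-DPB1*, *HLA-DMA*, *HLA-DMB*, *HLA-DOB* and *CTSS*. They were chosen by name, and every probe set annotated to 1 of them alone was kept, which gave 15 probe sets for 9 of the 11963 measured genes. The cells carry simian virus 40 large T antigen and form a single established line. At passages 22 to 23 they were seeded on collagen-coated filters, kept submerged for 1 week and then lifted to an air-liquid interface. The medium held serum, insulin, cholera toxin, EGF, DMSO, glutamine and antibiotics, with ascorbic acid added at air-lifting, and no interferon is named among the additions. RNA came from 3 independent replicate cultures, called cultures 1, 2 and 3, with electrical resistances of 489, 439 and 468 Ω · cm2. Each was hybridized to 1 Affymetrix human expression array. All 3 belong to the same condition. Corneal tissue was not analysed here, and the values describe the line alone.

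MHC class II molecules are heterodimers of an alpha and a beta chain that show peptides from endosomes to CD4+ T cells. The invariant chain, encoded by *CD74*, blocks their groove during assembly and guides them to endosomes, where cathepsins trim it and HLA-DM exchanges the remaining fragment for peptide. Transcription of the class II chain genes depends largely on the coactivator CIITA. It is made constitutively in professional antigen presenting cells and can be induced by interferon gamma in many epithelia. In the cornea, class II molecules are known mainly from Langerhans and dendritic cells lying among the epithelial cells.

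The levels are RMA expression values on the log2 scale. Across all probe sets the cultures correlated pairwise at a Pearson's r of 0.987 to 0.994. Background was judged from genes that belong to other tissues, such as liver, retina, muscle and pancreas, and a probe set had to pass the 95th percentile of these panel genes in every culture to be called above it. The threshold was 7.52, 7.23 and 7.26 in cultures 1, 2 and 3. The simple epithelial genes *KRT18*, *KRT19*, *CDH1*, *EPCAM*, *KRT7* and *KRT8* were above it (6 of 6), with mean levels from 10.24 to 12.58. *CDH1* and *KRT7* were above the threshold at 1 of 2 probe sets each. The corneal genes *KRT3*, *KRT12*, *PAX6* and *ALDH3A1* and the basal keratin genes *KRT5* and *KRT14* were not above it on any array (0 of 6), at 4.86 to 6.83, so these defining markers of the labelled tissue were not detected over background. Since probe sets differ in affinity, a higher level of 1 gene than of another is not read as more transcript. A level not above background bounds what the array could show and is not absence.

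Of the 15 probe sets, 1 was above background on all 3 arrays and 14 on none. Among all 19071 probe sets that name a single gene, 31.4% were above background on all arrays and 60.9% on none. Taking each gene at its brightest probe set, 1 of the 9 genes was above background, against 39.6% of all genes, and 8 were above it on no array, against 52.4%. In bulk RNA, fewer cells with a transcript and less of it per cell cannot be told apart. The mean distance of a probe set from the array thresholds was tested with limma across all 19071 probe sets. In this test 14 of the 15 lay lower than the threshold (59.1% of all probe sets did), none lay higher (30.4% of all) and 1 was not told apart from it. The p-values test whether that mean distance is 0. Their error comes from the spread of the distances between the 3 cultures, shared in part over all probe sets. That spread includes the differences between the array thresholds. The limma adjusted p of the 14 was at most 0.0041, and their mean distances ran from -3.66 to -0.48 log2 units. The median level of the 9 genes was 6.23, between the median of the 59 measured panel genes, 5.42, and that of all genes, 6.98.

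**Figure D1:**
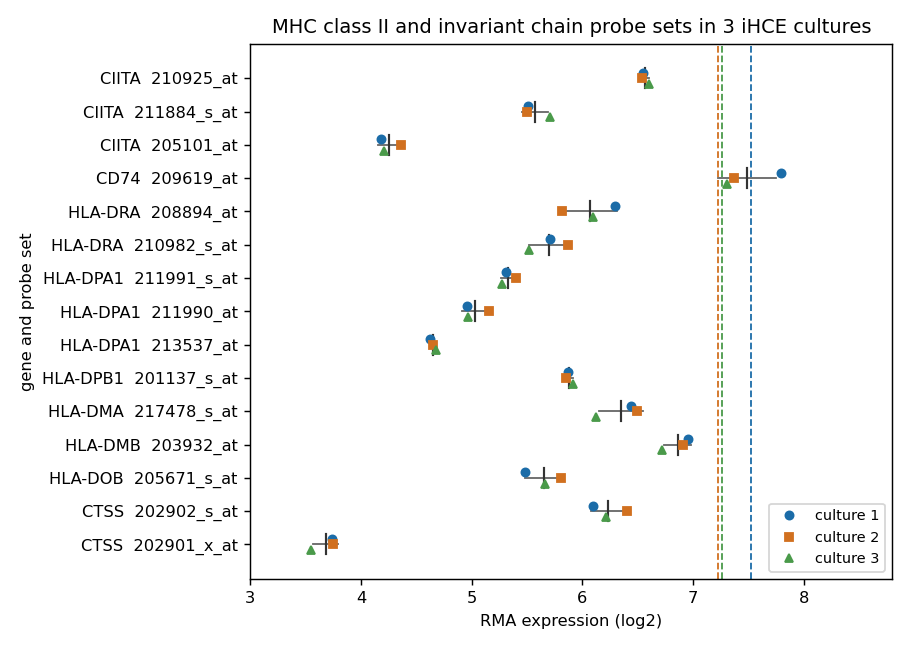
RMA expression (log2, x axis) of the 15 probe sets of the class II and invariant chain genes (y axis) in each of the 3 cultures, with vertical ticks for means and horizontal bars for ± SD (n = 3). Dashed lines in the culture colors mark the background thresholds (7.52, 7.23 and 7.26), and only the *CD74* probe set has all its points to the right of the line of its own culture.

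*CIITA*, the gene of the coactivator of class II chain transcription, was not above background at any of its 3 probe sets. The brightest, 210925_at, read 6.55, 6.54 and 6.60 in cultures 1, 2 and 3, which was 6.56 ± 0.03 (SD, n = 3) and -0.77 log2 units from the threshold (95% interval -1.06 to -0.48, limma adjusted p = 5.1e-05). Its 211884_s_at read 5.51, 5.50 and 5.71, and its 205101_at 4.18, 4.36 and 4.21. All 9 values of the gene lay under the threshold of their array, where the order of its probe sets carries no amount.

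*CD74* alone among the 9 genes was above background, and by a small margin. Its probe set 209619_at read 7.79, 7.37 and 7.31 in cultures 1, 2 and 3, a mean of 7.49 ± 0.26 (SD, n = 3). These values exceeded the thresholds of their arrays by 0.27, 0.14 and 0.05 log2 units. The mean distance of 0.15 (95% interval -0.15 to 0.46) did not pass the test (limma adjusted p = 0.32). Among the probe sets naming a single gene, 71.9%, 64.7% and 63.3% had a lower value in cultures 1, 2 and 3. Culture 1 was the highest, by 0.45 log2 units over the mean of the others, which lay close together. The call depended on the threshold. With the median of the panel plus 3 scaled MADs, or with the highest panel value, *CD74* was not above background, at mean distances of -0.41 and -1.44. With a panel without its 2 brightest genes, *MBP* and *CYP3A4*, an alternative added after the data were seen, the distance was 0.39 and passed the test (limma adjusted p = 0.010).

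The chains of the surface molecules HLA-DR and HLA-DP were not above background on any array. *HLA-DRA*, the alpha chain shared by the HLA-DR molecules, read 6.29, 5.81 and 6.10 at 208894_at, a mean of 6.07 ± 0.24 (SD, n = 3), and 5.71, 5.87 and 5.52 at 210982_s_at, a mean of 5.70 ± 0.17. Culture 1 was the highest at the first and culture 2 at the other, and all the values lay under the thresholds. *HLA-DPA1*, the alpha chain of HLA-DP, was measured by 3 probe sets. 211991_s_at read 5.31, 5.40 and 5.28, 211990_at 4.95, 5.16 and 4.97, and 213537_at 4.62, 4.65 and 4.68. All 9 values were more than 1.5 log2 units under their array's threshold. The beta chain of HLA-DP, *HLA-DPB1*, read 5.87, 5.85 and 5.92, with an SD of 0.04 around a mean of 5.88. Its distance from the threshold was -1.46 (limma adjusted p = 1.0e-08).

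The genes of the peptide exchange machinery were also under the threshold, *HLA-DMB* the least far. *HLA-DMA* and *HLA-DMB* encode the chains of HLA-DM, which removes the invariant chain fragment from the groove. *HLA-DMB* read 6.95, 6.91 and 6.72 in cultures 1, 2 and 3, a mean of 6.86 ± 0.13 (SD, n = 3), and lay -0.48 log2 units from the threshold (95% interval -0.77 to -0.18, limma adjusted p = 0.0041). It no longer passed the test with the 90th percentile of the panel (distance -0.14, limma adjusted p = 0.25), without culture 3 (-0.44, adjusted p = 0.076), without _x_at and _s_at probe sets (-0.087, adjusted p = 0.49) or with the panel without *MBP* and *CYP3A4* (-0.24, adjusted p = 0.058). *HLA-DMA* read 6.43, 6.49 and 6.12, a mean of 6.35 ± 0.20. *HLA-DOB*, the beta chain of HLA-DO, which restrains HLA-DM in B cells, read 5.48, 5.81 and 5.66. The last gene, *CTSS*, encodes cathepsin S, the protease that makes the late cuts in the invariant chain in antigen presenting cells. It read 6.10, 6.40 and 6.21 at 202902_s_at and 3.74, 3.75 and 3.55 at 202901_x_at. The latter lay above no more than 1.54% of the probe sets on any array.

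**Figure D2:**
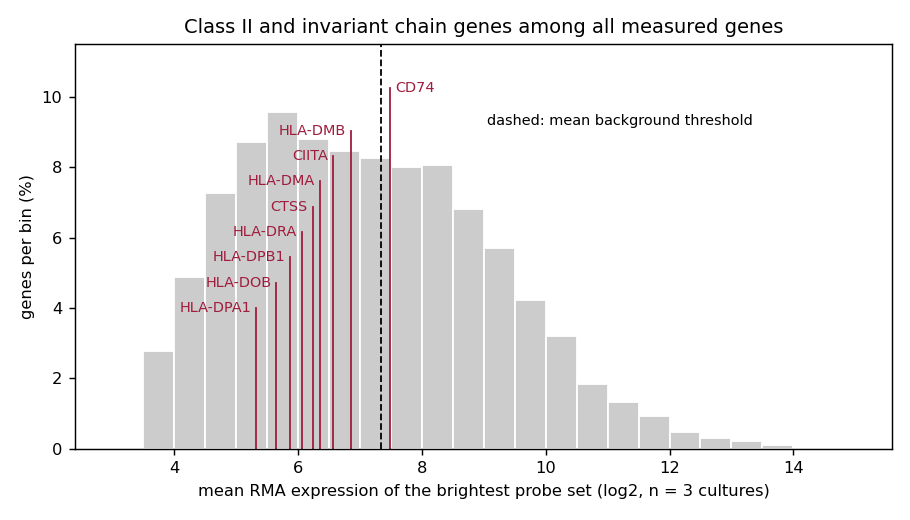
Percent of the 11963 measured genes per bin of mean RMA expression (log2, brightest probe set, n = 3 cultures; grey bars), with red lines at the 9 class II and invariant chain genes (line heights carry no value). The mean background threshold is dashed, and 8 of the 9 genes lie to its left.

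The spread between cultures was small for these genes, as it was for other probe sets under background. The SD over the 3 cultures ran from 0.03 to 0.26 over the 15 probe sets, with a median of 0.118, against 0.143 for all probe sets that name a single gene and 0.135 for the 11607 of them above background on no array. The widest range was 0.48 log2 units, at *CD74*, and *HLA-DRA* 208894_at had about the same. No probe set of the 15 ranged over 0.5 log2 units or more, while 15.9% of all did, and 12.4% of those above background on no array. RMA compresses low values, so a small spread there is not read as stable expression.

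The other class II chains were not called above background either, but *HLA-DRB1* and *HLA-DOA* lay close to the threshold. The lists from here on are described by their counts, beside the 39.6% of all genes above background, and over the 7 lists of pathway genes 30 of 52 were (57.7%). Of the 9 other chain genes listed, 6 had a probe set naming them alone, 18 probe sets in all. None of the 6 genes was above background on all arrays, and 17 of the 18 probe sets exceeded the threshold on no array. *HLA-DRB1*, the main HLA-DR beta chain, read 7.29, 7.85 and 7.33 in cultures 1, 2 and 3 at an _x_at probe set, and exceeded the threshold in cultures 2 and 3. Its mean distance, 0.155 log2 units against 0.154 for *CD74*, was not told apart from 0 (limma adjusted p = 0.39). The count of 0 of 6 genes depended on the setting. It was 2 with the 90th percentile, and 1 without culture 1, with all probe sets of the panel genes, with the probe sets of each gene averaged, and with the panel without *MBP* and *CYP3A4*. *HLA-DOA*, the partner of *HLA-DOB*, reached 7.10 ± 0.13 (SD, n = 3) at the brightest of its 4 probe sets and 4.63 ± 0.07 at the dimmest. The brightest lay -0.24 log2 units from the threshold and was not told apart from it (limma adjusted p = 0.12). The 7 probe sets of *HLA-DQB1* had means from 3.83 to 6.33. *HLA-DQA1*, its alpha chain, had 4.89 ± 0.21, *HLA-DQB2* 5.63 ± 0.03 and *HLA-DRB4* 6.10 ± 0.07 at the brightest probe set. Probe sets marked _x_at or _s_at can bind several transcripts, and the HLA-DRB genes are near-identical, so the signal of *HLA-DRB1* may include others of that family.

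Class II promoters are recognized by a set of factors bound to neighboring boxes. RFX binds the X box, CREB1 the adjoining X2 box and NF-Y the Y box, and CIITA docks on the assembly. RefSeq promoters of build GRCh38.p14, from 250 bases before to 50 after the start, were available for 6 of the 9 genes and not for *CIITA*, *HLA-DRA* and *CTSS*. They were searched on both strands for TGATGA, letters found in many X boxes, and for ATTGG, the core of the Y box, which reads CCAAT on the other strand. These letters were chosen after the promoters had been read. The stretches below are shown so that the letters can be seen in place, in capitals. The first 3 hold both sets close together, that of *HLA-DMB* only TGATGA and that of *HLA-DPB1* only ATTGG. They are written 5′ to 3′ in the direction of transcription.

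CD74 (chr5:150412947-150412994, minus strand): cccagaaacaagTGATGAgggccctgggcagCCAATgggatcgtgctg

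HLA-DMA (chr6:32953160-32953216, minus strand): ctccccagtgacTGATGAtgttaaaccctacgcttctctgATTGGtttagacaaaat

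HLA-DOB (chr6:32817084-32817138, minus strand): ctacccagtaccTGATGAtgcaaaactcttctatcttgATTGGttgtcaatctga

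HLA-DMB (chr6:32941053-32941122, minus strand): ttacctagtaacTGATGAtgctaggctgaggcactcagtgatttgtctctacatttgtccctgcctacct

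HLA-DPB1 (chr6:33075846-33075907, plus strand): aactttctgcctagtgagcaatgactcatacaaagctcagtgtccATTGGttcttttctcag

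In *CD74*, *HLA-DMA* and *HLA-DOB* both sets of letters stood close together, TGATGA beginning at -72, -107 and -124 from the start and ATTGG or CCAAT following 19, 28 and 26 bases on. Such a pair, with the starts 15 to 40 bases apart, was found in 0.561% of 35116 RefSeq promoters. TGATGA was found in 10.9% and ATTGG or CCAAT in 34.6%, each on either strand and with or without the other letters. *HLA-DMA* held a further ATTGG at -49 and *HLA-DOB* a CCAAT at -74. *HLA-DMB* held TGATGA at -82, with its only CCAAT farther off at -22. *HLA-DPB1* held ATTGG at -99 and CCAAT at -75 and no TGATGA. *HLA-DPA1* has starts at 2 places, and neither promoter held a pair or either form of the Y letters, and the downstream one held TGATGA on the other strand, 32 bases after its start. Of 7 other class II genes with a promoter in the table, *HLA-DRB1* and *HLA-DRB5* held the pair, with 27 bases between the starts. *CD74*, above background, and *HLA-DMA* and *HLA-DOB*, not above it, thus shared the pair. Since the letters and the spacing were chosen on these promoters, the shares of all promoters are given for scale and the count of 3 of 6 genes carries no weight against them. A match is a description of the sequence and does not show binding. Only these exact letters were searched, so a promoter without them may still hold an X or Y box.

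**Figure D3:**
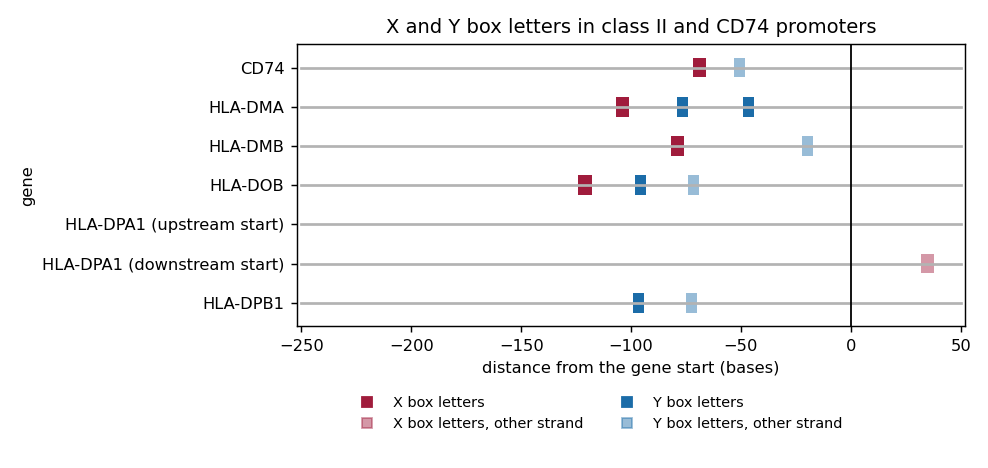
Positions of the X box letters (red) and Y box letters (blue), both paler on the other strand, along the 7 RefSeq promoters of 6 class II and invariant chain genes, as distance in bases from the gene start (x axis). The red mark of the pair lies at -72, -107 and -124 in *CD74*, *HLA-DMA* and *HLA-DOB*.

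Of the factors that bind these promoters, 4 of 7 measured genes were above background, 1 on some arrays and 2 on none. *RFX5*, the largest subunit of RFX, read 8.93, 8.85 and 8.83 in cultures 1, 2 and 3, a mean of 8.87 ± 0.05 (SD, n = 3), and was above background at both of its probe sets. *RFXANK*, another RFX subunit, had 8.75 ± 0.06 and *CREB1* 8.72 ± 0.14. *NFYB*, a subunit of NF-Y, had 8.55 ± 0.27. *CREB1* and *NFYB* were above background at 1 probe set each, of 4 and 3. *NFYC* read 7.30, 7.53 and 7.27 and exceeded the threshold in cultures 2 and 3. *NFYA* had 6.97 ± 0.27 and *RFXAP*, the third RFX subunit, 4.86 ± 0.14 at its only probe set, and neither was above background on any array. When the probe sets of each gene were averaged, 2 of the 7 were above background, with the highest panel value 0 of 7, and without _x_at and _s_at probe sets 2 of 4.

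The route by which interferon gamma induces *CIITA* was represented by 7 measured genes, of which 4 were above background and 3 on no array. The receptor chain genes *IFNGR1* and *IFNGR2* had levels of 9.01 ± 0.01 and 8.23 ± 0.04 (SD, n = 3), and the receptor-bound kinase gene *JAK1* 10.30 ± 0.11. *IFNGR1* was above background at 1 of its 2 probe sets. *IRF1*, a transcription factor that acts on the inducible *CIITA* promoter, read 9.12, 8.77 and 8.79. The kinase gene *JAK2* was not above background at either of its probe sets, with 5.22 ± 0.11 at the brighter. *IRF2* had 6.31 ± 0.20 and the feedback inhibitor gene *SOCS1* 6.09 ± 0.03. *IRF1* and *JAK1* were thus over the threshold in the same cultures in which no *CIITA* probe set reached it. With the highest panel value 1 of the 7 was above background.

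Of the 10 measured genes of endosomal proteolysis other than *CTSS*, 9 were above background and 1 on no array. With the highest panel value 3 of 10 were. The cysteine protease genes *CTSB* and *CTSL* had levels of 10.21 ± 0.01 and 10.09 ± 0.21 (SD, n = 3). *CTSB* was above background at 3 of its 4 probe sets. *CTSV*, which can replace cathepsin S in cutting the invariant chain in thymic epithelium, read 9.81, 9.85 and 9.85. *CTSH* had 9.24 ± 0.07, *CTSF* 8.74 ± 0.34, *LGMN*, the asparaginyl endopeptidase, 8.31 ± 0.09 and *CTSD* 7.96 ± 0.09. The cystatin gene *CST3*, an inhibitor of these proteases, had 7.84 ± 0.44, and *MARCHF8*, a ubiquitin ligase that removes class II molecules from the surface, 8.08 ± 0.13. *CTSK* was the exception at 6.94 ± 0.08. These enzymes also serve general protein turnover.

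**Figure D4:**
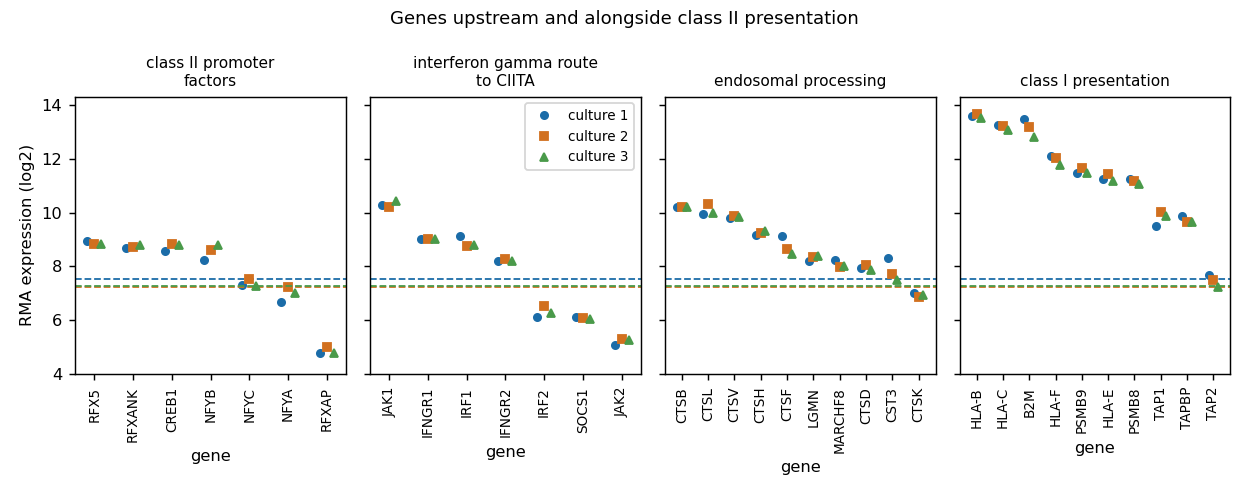
RMA expression (log2, y axis) of the measured genes of 4 lists in cultures 1, 2 and 3, each gene at its brightest probe set, ordered by mean within a list, with dashed lines for the background thresholds of the cultures. *RFXAP*, *JAK2* and *CTSK* are the lowest of the first 3 lists (4.86, 5.22 and 6.94), and *TAP2* of the class I list (7.47) lies at the thresholds.

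*CD74* also serves at the cell surface as the receptor of the cytokine MIF, with CD44 as its signaling partner. *MIF* read 11.58, 10.94 and 11.14 in cultures 1, 2 and 3, and *CD44* 9.75, 9.70 and 10.04, both above background. *CD44* was above background at 5 of its 8 probe sets. The chemokine receptor genes *CXCR2* and *CXCR4*, whose products also take part in MIF signaling, were not, at 4.18 ± 0.08 and 5.83 ± 0.42 (SD, n = 3). *MIF* and *CD74* were both highest in culture 1, and *CD44* was highest in culture 3.

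Of 8 measured genes of costimulation and T cell adhesion, 2 were above background. *CD40*, the receptor of T cell help, had 8.40 ± 0.23 (SD, n = 3) and *CD58*, the ligand of CD2, 8.97 ± 0.11 at an _x_at probe set. *CD40* was above background at 2 of its 4 probe sets and *CD58* at 2 of its 5. The costimulatory genes *CD80* and *CD86* had 5.02 ± 0.08 and 4.86 ± 0.07. *ICOSLG*, *TNFSF4* and *PDCD1LG2* lay between 4.83 and 6.52, and the adhesion gene *ICAM1* had 7.17 ± 0.12, not told apart from the threshold (limma adjusted p = 0.28). When the probe sets of each gene were averaged, or with the highest panel value, 0 of the 8 were above background.

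The class I genes, by contrast, were mostly above background on the same arrays. Of 10 measured genes of class I presentation, 9 were above background, and *TAP2*, at 7.47 ± 0.23 (SD, n = 3), exceeded the threshold on 2 arrays. The class I chain genes *HLA-B*, *HLA-C*, *HLA-F* and *HLA-E* and the light chain gene *B2M* had levels from 11.28 to 13.58. *HLA-F* was above background at 2 of its 3 probe sets, the others of these at all of theirs. The chain genes were read at _x_at probe sets, so the signal of each may include others of that family. Without _x_at and _s_at probe sets 4 of 5 measured class I genes were above background. The immunoproteasome genes *PSMB8* and *PSMB9*, which lie in the class II region of the HLA complex, had 11.15 ± 0.09 and 11.52 ± 0.10.

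**Figure D5:**
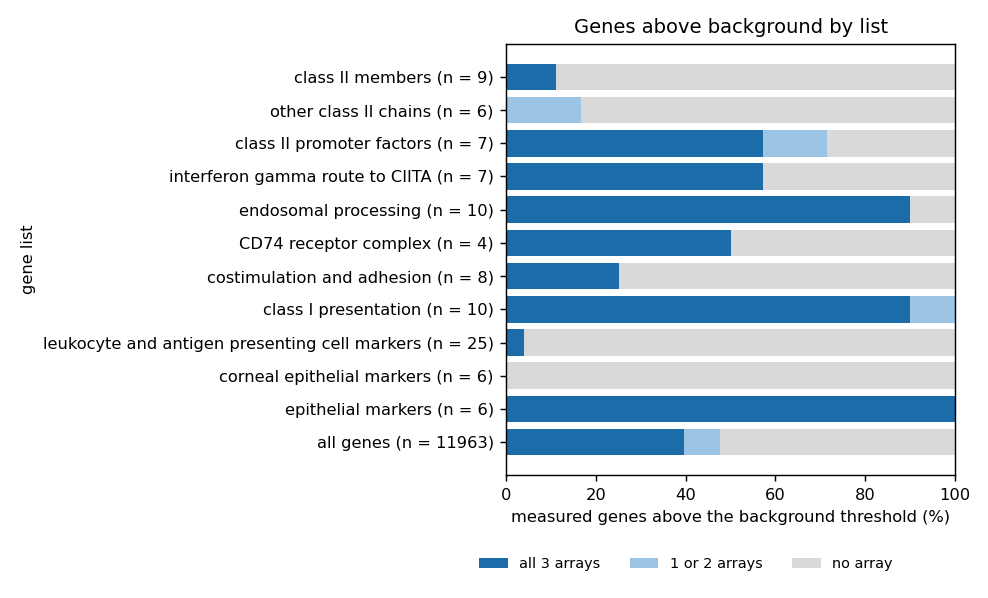
Percent (x axis) of the measured genes of each list (y axis, n in brackets) that exceeded the background threshold on all 3 arrays (dark blue), on 1 or 2 arrays (light blue) or on none (grey). The class II and invariant chain genes have 1 of 9 in dark blue, class I presentation 9 of 10 and all genes 39.6%.

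Markers of leukocytes and professional antigen presenting cells were examined, since such cells could bring class II transcripts into a sample. Of 25 measured, 24 were above background on no array. The pan-leukocyte gene *PTPRC* had a level of 5.12 ± 0.09 (SD, n = 3), the Langerhans cell genes *CD207* and *CD1A* 4.72 ± 0.17 and 5.80 ± 0.05, the B cell gene *MS4A1* 5.73 ± 0.36 and the monocyte gene *CD14* 6.87 ± 0.05. *CD83*, a marker of mature dendritic cells, read 7.25, 7.05 and 7.16 in cultures 1, 2 and 3 and was not told apart from the threshold (limma adjusted p = 0.23). The exception was *LAMP3*, a lysosomal membrane protein gene of mature dendritic cells that other cells make under interferon, with 9.56 ± 0.18. The number of markers above background was 2 in place of 1 under 5 of the alternatives. The mean level over the 25 genes was 5.98, 5.85 and 5.87 in cultures 1, 2 and 3, highest, as *CD74* was, in culture 1. Culture 1 was also the highest for the epithelial genes, at 11.19, 10.86 and 10.96, and for the corneal genes, at 5.71, 5.48 and 5.55. For other lists culture 2 was the highest, among them the class I genes, at 11.34, 11.35 and 11.15. The panel genes, at 5.61, 5.62 and 5.53, had that order too. The part of leukocytes and antigen presenting cells in the *CD74* level was not tested.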

How the data were processed

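RNA of 3 replicate iHCE cultures was measured on Affymetrix human arrays, 1 per culture, so each SD covers culture and technical variation. The authors deposited log2 expression values for 22283 probe sets, for which the submitters' processing notes name RMA and R 2.8.0. RMA removes differences in total brightness between arrays and compresses low values. The methods describe a normalization run that took in tissue arrays and a custom probe annotation, while the deposited table has the manufacturer's probe sets, so whether it comes from that run is unclear. Arrays give no counting depth, and their number limits the precision.

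Probe sets were named through the platform annotation, with symbols updated by Entrez number (RefSeq, GRCh38.p14). Of them, 19071 named 1 gene, 1043 several and 2169 none here, and 12 kept an older symbol. Some listed genes had no probe set naming them alone and are not reported here. The threshold rested on 59 measured of 68 panel genes, each at its brightest probe set, of which 3 were themselves above background. Alternatives were other thresholds, panels, normalizations and probe set rules, and each culture left out. Value minus threshold was fitted with limma 3.58.1 (R 4.3.3; intercept only, eBayes with trend, two-sided, Benjamini-Hochberg over all 19071 probe sets, calls at an adjusted p under 0.05), with the thresholds taken as fixed. The fit was tested on simulated data. The other lists, 10 in all, served for description, with no test over a list. The genes and lists were chosen with earlier results of these data known. Every member is named with all its probe sets, and from the other lists any gene could be named, those above background by descending level and the exceptions to a count first.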

Additional observations from a re-analysis of the deposited data

How the results depend on the processing

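The count of class II and invariant chain probe sets above background, 1 of 15 (the gene count being 1 of 9), was 0 with the highest panel value and with the median plus 3 scaled MADs, where the distance of *CD74* from the threshold became -1.44 and -0.41. It stayed at 1 in the other 8 alternatives that apply to it, or 9 for the gene count. The number lying higher than the threshold in limma rose from 0 to 1, the *CD74* probe set, with the 90th percentile, with all probe sets of the panel genes, without _x_at and _s_at probe sets, and with the panel without *MBP* and *CYP3A4*, an alternative added after the data were seen. The number lying lower was 5 of the 7 left without _x_at and _s_at probe sets. Of the 52 measured genes in the 7 pathway lists, 30 were above background, but 15 with the highest panel value and 16 of 30 without _x_at and _s_at probe sets. Leukocyte markers above background numbered 2 with the 90th percentile, with all panel probe sets, with the mean over probe sets, without *MBP* and *CYP3A4*, and without _x_at and _s_at probe sets. The cause of these shifts was not tested beyond the threshold's own move. No paired analysis was possible because the 3 arrays form a single group. Arrays at background limit what can be read, since values there carry no order.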

Other observations

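Probe sets that name several class II genes, or a class II pseudogene, were left out of the counts of the report. Of those naming several, 204670_x_at (*HLA-DRB1* and *HLA-DRB4*) read 7.53, 7.59 and 7.20 in cultures 1, 2 and 3 and exceeded the threshold in cultures 1 and 2. 209312_x_at, which names 4 genes of the HLA-DRB and HLA-DQB families, read 7.09, 7.43 and 6.67 and exceeded it in culture 2. 215193_x_at, which also names 4, had 6.12 ± 0.14 (SD, n = 3), 221491_x_at, which names 6, 4.11 ± 0.09, and 212671_s_at (*HLA-DQA1* and *HLA-DQA2*) 4.44 ± 0.25. The pseudogene *HLA-DPA2* had 4.78 ± 0.03, and *HLA-DRB6* had 6.37 ± 0.13 and 5.43 ± 0.18 at its probe sets. Culture 2 was the highest of the 3 at 204670_x_at and 209312_x_at, as it was for *HLA-DRB1* alone. These probe sets can bind the same transcripts, so they are not independent readings.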
